A study of Mus musculus with 9 samples.

Results

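Abhd16b, Fndc8, Trim42, Ccdc185 and Spem1 are 5 single mouse genes whose transcripts were chosen by their readout: each had about 20-fold lower scaled counts (CPM, counts relative to the library's total) in cells given octyl-L2HG plus oxamate than in cells given oxamate. They are 5 of 49216 genes with counts, and all 5 were among the 18234 genes with enough counts to be tested. RNA came from C57Bl mouse germ cells in pachytene and diplotene of meiosis, sorted from digested testes by a tdTomato transgene that a germ cell specific promoter drives (the labels do not name the promoter). The 9 poly-A libraries fell into 3 groups with 3 libraries (A, B and C) in each. The first group was cultured for 48 h with 24 mM oxamate, an inhibitor of lactate dehydrogenase, together with 0.3 mM octyl-L2HG, an ester of L-2-hydroxyglutarate that enters cells. The second received 24 mM oxamate alone for 48 h. The third was untreated, and the labels give no culture time for it. No library received octyl-L2HG without oxamate. Whether A, B and C are separate cultures or animals is not labelled, so each p-value rests on a spread between libraries that may be technical only.

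Spermatids are the haploid cells that follow meiosis, and many of their transcripts are first made in late spermatocytes and stored until they are translated. L-2-hydroxyglutarate is a metabolite that lactate dehydrogenase can make from 2-oxoglutarate, and it inhibits dioxygenases that use 2-oxoglutarate, among them histone and DNA demethylating enzymes. Spem1 (spermatid maturation 1) is needed in mice for the shedding of cytoplasm from the sperm head, and its protein binds the ubiquitin-like protein ubiquilin 1. Abhd16b encodes a protein with an alpha/beta hydrolase domain, a paralog of the phosphatidylserine lipase Abhd16a. Trim42 belongs to the tripartite motif family, which holds many ubiquitin ligases. Fndc8 and Ccdc185 are named for a fibronectin type III domain and for coiled coils.

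Library totals ran from 24849620 to 46671048 counts. The 14 spermatocyte markers summed to 13170 to 15550 CPM with octyl-L2HG plus oxamate, 13180 to 14710 CPM with oxamate and 14580 to 15530 CPM in untreated cells, and none was at 0 in any group. The 20 markers of elongating spermatids, which lie later than the labelled stage, were also detected, at 1176 to 1480 CPM with octyl-L2HG plus oxamate, 2384 to 2736 CPM with oxamate and 3041 to 3307 CPM in untreated cells. The 33 markers of Sertoli, Leydig, peritubular myoid, blood and endothelial cells together summed to 14.0 to 24.7 CPM with octyl-L2HG plus oxamate (4 of them at 0 in the whole group), 14.2 to 19.8 CPM with oxamate (5 at 0) and 18.4 to 19.9 CPM in untreated cells (5 at 0). The 10 markers of spermatogonia summed to 57.9 to 64.9 CPM with octyl-L2HG plus oxamate, 50.5 to 67.7 CPM with oxamate and 44.6 to 55.8 CPM in untreated cells. In such bulk libraries fewer cells of a type and less RNA per cell cannot be told apart. The part that the share of spermatids plays in the values below was not tested.

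Spem1 (ENSMUSG00000041165) lies on the minus strand of chromosome 11 at 69820876 to 69822180 (GRCm38), with 3 exons. It had 31, 13 and 115 counts in libraries A, B and C with octyl-L2HG plus oxamate, which are 0.652, 0.572 and 2.92 CPM after TMM scaling, which sets libraries to a common level from the bulk of their genes. Oxamate libraries held 23.6, 17.6 and 20.8 CPM, and untreated libraries 31.8, 25.1 and 30.5 CPM. The 3 libraries with octyl-L2HG lay far under the other 6, and its library C stood above A and B. The means were 1.38 ± 1.33 CPM with octyl-L2HG plus oxamate, 20.6 ± 3.001 CPM with oxamate and 29.1 ± 3.53 CPM in untreated cells (SD, n = 3 each).

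Abhd16b (ENSMUSG00000055882) is a gene of 1 exon on the plus strand of chromosome 2 at 181493206 to 181494980. Libraries with octyl-L2HG plus oxamate held 4, 0 and 12 of its counts, or 0.0841, 0 and 0.304 CPM. The count of 0 in library B allows a level of up to 0.132 CPM (3 counts, counting error only). Oxamate libraries held 3.21, 1.84 and 1.95 CPM and untreated libraries 4.85, 3.37 and 4.198 CPM. It was the lowest of the 5 transcripts in each group, in CPM and in CPM per kilobase, and with 16 counts in all with octyl-L2HG its value there is the least precise.

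Trim42 (ENSMUSG00000032451) has 5 exons on the minus strand of chromosome 9 at 97349562 to 97369958. With octyl-L2HG plus oxamate its libraries held 9, 1 and 19 counts, or 0.189, 0.0440 and 0.482 CPM. The values were 5.26, 3.05 and 4.30 CPM with oxamate and 9.01, 6.89 and 7.02 CPM in untreated cells. Again no library of one group reached the range of another, and library C was the highest of those with octyl-L2HG.

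Fndc8 (ENSMUSG00000018844) has 4 exons on the plus strand of chromosome 11 at 82892124 to 82900801. Its 14, 7 and 46 counts with octyl-L2HG plus oxamate correspond to 0.294, 0.308 and 1.17 CPM. Oxamate libraries held 11.9, 9.50 and 8.96 CPM and untreated libraries 16.7, 13.7 and 13.1 CPM. Libraries A and B with octyl-L2HG were almost level, and C lay above both.

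Ccdc185 (ENSMUSG00000043429) is a gene of 1 exon on the minus strand of chromosome 1 at 182747126 to 182749180. It had 45, 32 and 119 counts with octyl-L2HG plus oxamate, or 0.946, 1.41 and 3.02 CPM. Oxamate libraries held 32.5, 27.5 and 32.5 CPM, and untreated libraries 40.2, 34.6 and 33.5 CPM. It had the most counts of the 5 genes, and its oxamate and untreated libraries lay closest together.

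**Figure D1:**
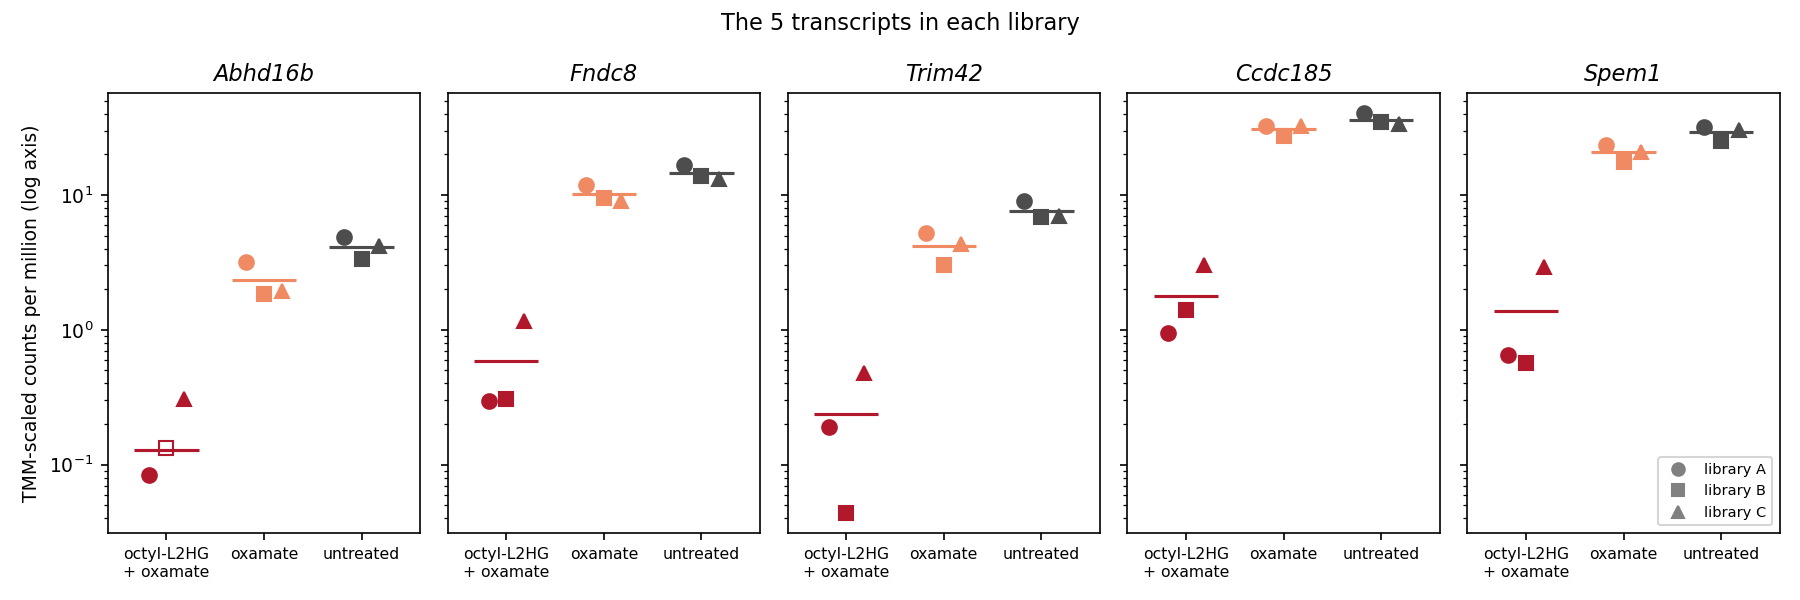
TMM-scaled CPM (log axis) of the 5 transcripts in each library, with octyl-L2HG plus oxamate, oxamate and untreated from left to right. Points are libraries, lines are means of 3, and the open square marks the count of 0 of Abhd16b at its upper limit of 0.132 CPM; in each panel the 3 libraries with octyl-L2HG lie under the other 6.

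With octyl-L2HG plus oxamate against oxamate, the comparison that chose the genes, the log2 changes were -4.52 (SE 0.67) for Abhd16b, -4.33 (SE 0.39) for Fndc8, -4.32 (SE 0.53) for Trim42, -4.28 (SE 0.29) for Ccdc185 and -4.24 (SE 0.41) for Spem1. These are 22.99-, 20.1-, 19.97-, 19.4- and 18.8-fold lower values, differences that the choice fixed, so they are given with no test. With limma-trend on log2(CPM + 2), a scale that shrinks changes of low genes, the 5 log2 changes were smaller, at -1.01 (Abhd16b), -1.46 (Trim42), -2.24 (Fndc8), -2.80 (Spem1) and -3.15 (Ccdc185). Over all tested genes 15.4% were called lower and 4.11% higher in this comparison, where called means a limma adjusted p under 0.05. Genes were ranked by this fold among called named genes whose 3 libraries per group do not overlap and that reach 2 CPM with oxamate. In that ranking the genes inside the span of the 5 were Fam71a at 22.6-fold and Actrt3, an actin-related protein of sperm, at 21.9-fold. Fam71b (26.7-fold), Spata31d1c (25.2-fold) and Spata31d1b (24.3-fold) stood above them, and these have close paralogs. Just under Spem1 came Tuba8, an alpha-tubulin (18.5-fold), the coagulation factor gene F5 (17.7-fold), H2al3 (17.6-fold), Trim80 (17.5-fold) and the presenilin-like protease Sppl2c (17.4-fold). No gap in fold separated the 5 genes from these.

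The level left with octyl-L2HG differed between its libraries. The 5 transcripts together had 2.17, 2.33 and 7.89 CPM in libraries A, B and C with octyl-L2HG plus oxamate, 76.4, 59.5 and 68.5 CPM with oxamate, and 103 (A), 83.7 (B) and 88.3 (C) CPM in untreated cells. All 5 were highest in library C of the octyl-L2HG group, where 9.79% (Ccdc185) to 14.1% (Spem1) of the mean oxamate level remained. The mean of libraries A and B was 1.80% (Abhd16b) to 3.82% (Ccdc185) of it. Library C was 2.57 times the mean of A and B for Ccdc185 and 7.24 times for Abhd16b. Without library C the log2 changes against oxamate were -5.64 for Abhd16b, -5.00 for Fndc8, -5.01 for Trim42, -4.79 for Ccdc185 and -5.02 for Spem1. Without library B, in which Abhd16b had no count, its log2 change was -3.82. Elongating spermatid markers summed to 1209, 1176 and 1480 CPM in libraries A, B and C of this group, again highest in C, and round spermatid markers to 4463, 5208 and 4337 CPM, lowest in C. Much of both sums came from abundant genes not called against oxamate. Among them were Ropn1l of the elongating list (mean 902 CPM in this group) and Spata16 (770 CPM) and Gk2 (753 CPM) of the round list. The sums thus say little on the genes of the lists that fell. The part of spermatid markers in the difference between libraries was not tested.

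**Figure D2:**
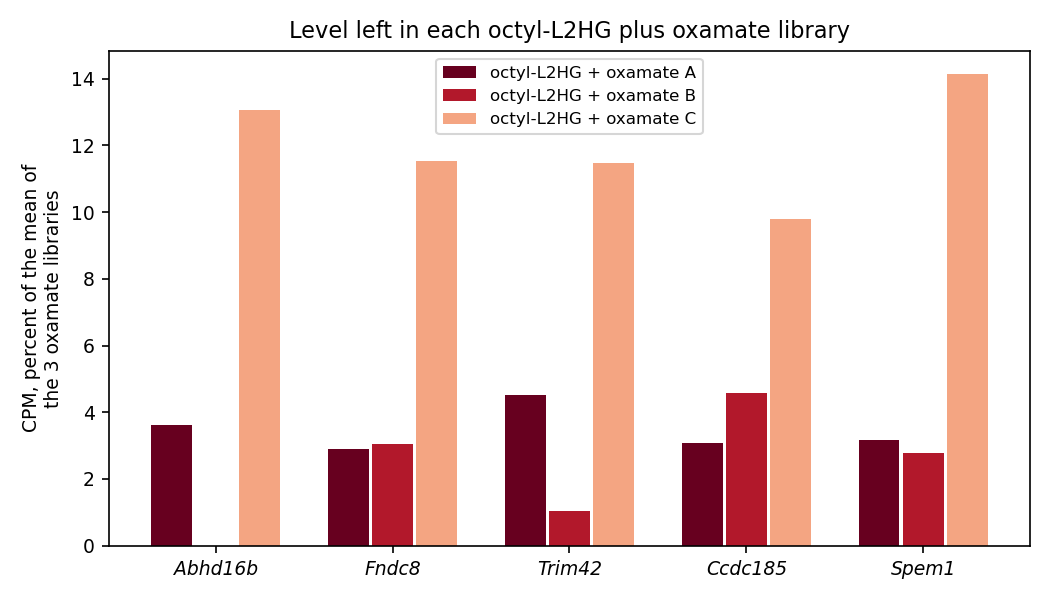
CPM of each gene in libraries A, B and C with octyl-L2HG plus oxamate, as a percent of the mean of the 3 oxamate libraries. Library C is the tallest bar for each gene, at 9.79% to 14.1%, and the missing bar is the count of 0 of Abhd16b in library B.

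The 5 genes were also lower with oxamate than in untreated cells in all 3 libraries, by a far smaller margin. All 3 oxamate libraries lay under all 3 untreated libraries for 5 of 5 genes, against 16.7% of all tested genes. The log2 changes, oxamate over untreated, were -0.88 (SE 0.25, limma adjusted p = 0.0508) for Trim42, -0.86 (SE 0.30, limma adjusted p = 0.0941) for Abhd16b and -0.53 (SE 0.21, limma adjusted p = 0.141) for Fndc8. They were -0.50 (SE 0.24, limma adjusted p = 0.215) for Spem1 and -0.23 (SE 0.18, limma adjusted p = 0.464) for Ccdc185. In this fit of all 9 libraries none of the 5 passed the threshold of 0.05 over all genes. It called 3.84% of all genes lower and 5.74% higher. Its spread comes also from the octyl-L2HG libraries, which entered the choice and are in neither group compared here. With only the 6 libraries compared, 4 of 5 were called lower, where 5.66% of all genes were, as described below. Oxamate libraries were the high side of the comparison that chose the genes, which favours high values in oxamate, and the untreated libraries did not enter the choice. The 5 transcripts share the same libraries, so they are not 5 independent observations.

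The calls depended on the fit. The letters A to C were taken to pair oxamate with untreated libraries. With the letter as a block 2 of 5 fell, Trim42 with a log2 change of -0.83 (limma adjusted p = 0.0108) and Abhd16b with -0.86 (limma adjusted p = 0.0263), where 9.99% of all genes were lower and 12.1% higher. The block was fitted over all 9 libraries, so it also paired those with octyl-L2HG by letter. For letter C these showed almost no pairing (r over genes of 0.04 with untreated and 0.005 with oxamate). A fit of only the 6 libraries compared called 4 of 5 lower, all but Ccdc185 (limma adjusted p = 0.172), where 5.66% of genes were called lower and 8.30% higher. Leaving out library C with octyl-L2HG, which is in neither group, also gave 4 calls, where 4.37% of genes were called lower and 6.34% higher. The 9-library fit takes 1 estimate of the spread from all groups, and its part in these calls was not tested. In the authors' deposited table for oxamate against untreated, Trim42 had a log2 change of -0.90 and an adjusted p of 0.039. The authors' deposited table gave log2 changes of -0.84 for Abhd16b, -0.52 for Fndc8, -0.50 for Spem1 and -0.25 for Ccdc185, with adjusted p-values of 0.182 to 0.883.

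**Figure D3:**
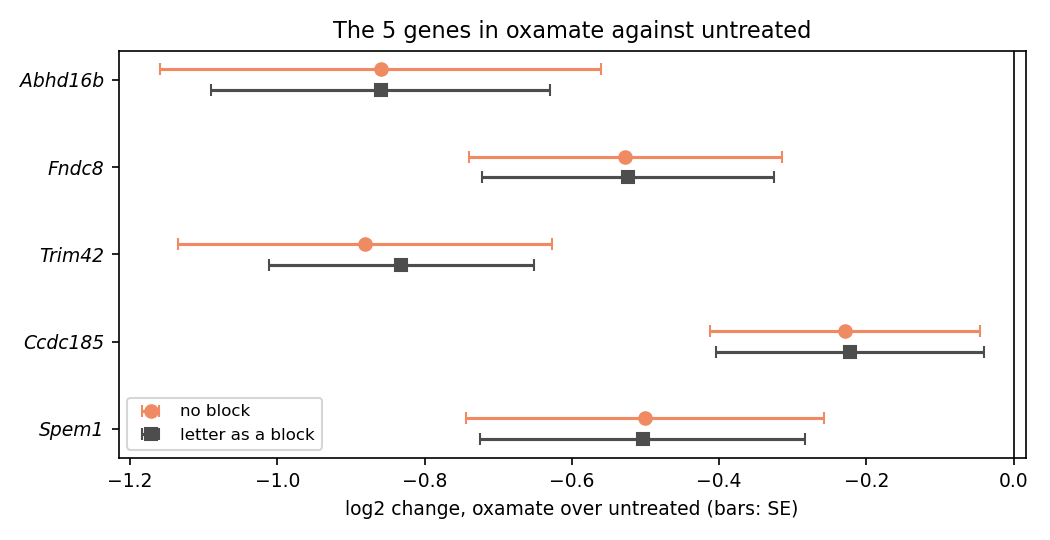
Log2 change of the 5 genes, oxamate over untreated, from the fit of all 9 libraries with no block (circles) and with the letter as a block (squares); bars are SE. All points lie under 0, from -0.23 for Ccdc185 to -0.88 for Trim42 with no block.

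Against untreated cells, the libraries with octyl-L2HG plus oxamate had log2 changes of -5.38 (SE 0.66) for Abhd16b, -5.20 (SE 0.52) for Trim42, -4.86 (SE 0.38) for Fndc8, -4.74 (SE 0.40) for Spem1 and -4.50 (SE 0.29) for Ccdc185. The mean level was 3.12% (Trim42) to 4.96% (Ccdc185) of the untreated mean. These libraries were the low side of the choice, so no test is given; of all tested genes 21.1% were called lower and 17.2% higher. This comparison and the other 2 share libraries, so their values are not independent.

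Per kilobase of exon the order of the 5 genes was the same in all 3 groups. Spem1 was highest, at 1.33 ± 1.28 CPM per kilobase with octyl-L2HG plus oxamate, 19.8 ± 2.88 with oxamate and 28.0 ± 3.40 in untreated cells (SD, n = 3 each). Ccdc185 followed at 0.871 ± 0.530 with octyl-L2HG plus oxamate, a range of 13.4 to 15.8 with oxamate and 17.6 ± 1.74 in untreated cells. Next came Fndc8 at 0.272 ± 0.231 with octyl-L2HG plus oxamate, 4.67 ± 0.718 with oxamate and 6.69 ± 0.887 in untreated cells. Trim42 had 0.0968 ± 0.0906 CPM per kilobase with octyl-L2HG plus oxamate, 1.71 ± 0.449 with oxamate and 3.10 ± 0.483 in untreated cells. Abhd16b was lowest at 0.0730 ± 0.0886 with octyl-L2HG plus oxamate, 1.31 ± 0.428 with oxamate and 2.33 ± 0.417 in untreated cells. With octyl-L2HG plus oxamate the library values of each gene overlapped with those of the next in this order. With oxamate only those of Trim42 and Abhd16b overlapped, and in untreated cells no neighbouring pair did. Among 13512 protein-coding genes ranked by mean CPM per kilobase, Spem1 stood at percentile 41.2 with octyl-L2HG plus oxamate, 81.2 with oxamate and 85.6 in untreated cells. Abhd16b stood at percentile 7.13 with octyl-L2HG plus oxamate, 39.3 with oxamate and 48.1 in untreated cells. The 5 transcripts thus ran from near the middle to the upper part of the range in untreated cells.

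Genes of 2 lists of spermatid markers were lower with octyl-L2HG too. The lists were drawn up with earlier results of these data known, and their counts are descriptions. Of 20 elongating spermatid genes 19 (95.0%) fell and 0 rose with octyl-L2HG plus oxamate against oxamate, where 15.4% of all tested genes fell and 4.11% rose. The median log2 change was -2.39 against 0.07 over all tested genes. Tssk6, a kinase of spermatids, had 0.494 CPM with octyl-L2HG plus oxamate against 6.06 CPM with oxamate (log2 difference -4.06, SE 0.56, limma adjusted p = 3.0e-04). The transition protein gene Tnp1 had 7.52 CPM with octyl-L2HG plus oxamate against 55.8 CPM with oxamate (log2 change -3.10, limma adjusted p = 9.4e-05). Akap4, the main scaffold of the fibrous sheath of the sperm tail, had 42.3 CPM with octyl-L2HG plus oxamate against 215 CPM with oxamate (log2 change -2.47, limma adjusted p = 1.1e-04). Akap3, a second scaffold protein of that sheath, had 78.9 CPM with octyl-L2HG plus oxamate against 279.9 CPM with oxamate (log2 change -1.90, limma adjusted p = 1.1e-04). Ropn1l, a protein of the sperm fibrous sheath, had 902 CPM with octyl-L2HG plus oxamate against 932 CPM with oxamate and was not called. Tssk6 is named here after its value was seen.

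Of 24 round spermatid and acrosome genes 16 (66.7%) fell and 0 rose in the same comparison, against 15.4% and 4.11% of all tested genes. The median log2 change was -1.34. Actl7a, an actin-like protein of the acrosome, named after its value was seen, had 17.3 CPM with octyl-L2HG plus oxamate against 65.7 CPM with oxamate (log2 change -2.003, SE 0.21, limma adjusted p = 8.8e-05). The genes of this list that did not pass were its most abundant, with means over all 9 libraries of 259 to 853 CPM. Those that fell had means of 251 CPM or less. The 3 genes of this list with the most counts were thus among those that did not pass. They were Gk2, a glycerol kinase (753 CPM with octyl-L2HG plus oxamate against 744 CPM with oxamate), Spata16, a Golgi protein of acrosome formation (770 CPM with octyl-L2HG plus oxamate against 728 CPM with oxamate), and Dpy19l2, needed for acrosome attachment (637 CPM with octyl-L2HG plus oxamate against 615 CPM with oxamate). With oxamate against untreated, 2 of these 24 genes (8.33%; Gk2 and Actl9) and 1 of the 20 elongating spermatid genes (5.0%; Ropn1l) fell and 0 rose, against 3.84% lower over all genes. With the letter as a block 3 of 24 (Zpbp in addition) and 1 of 20 fell, against 9.99% over all genes. Actl9 and Zpbp are named after their values were seen. Of 14 spermatocyte genes 0 fell and 1 rose with octyl-L2HG plus oxamate against oxamate, where 15.4% of all tested genes fell and 4.11% rose. The 1 that rose was the synapsis checkpoint gene Hormad1, named after its value was seen.

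**Figure D4:**
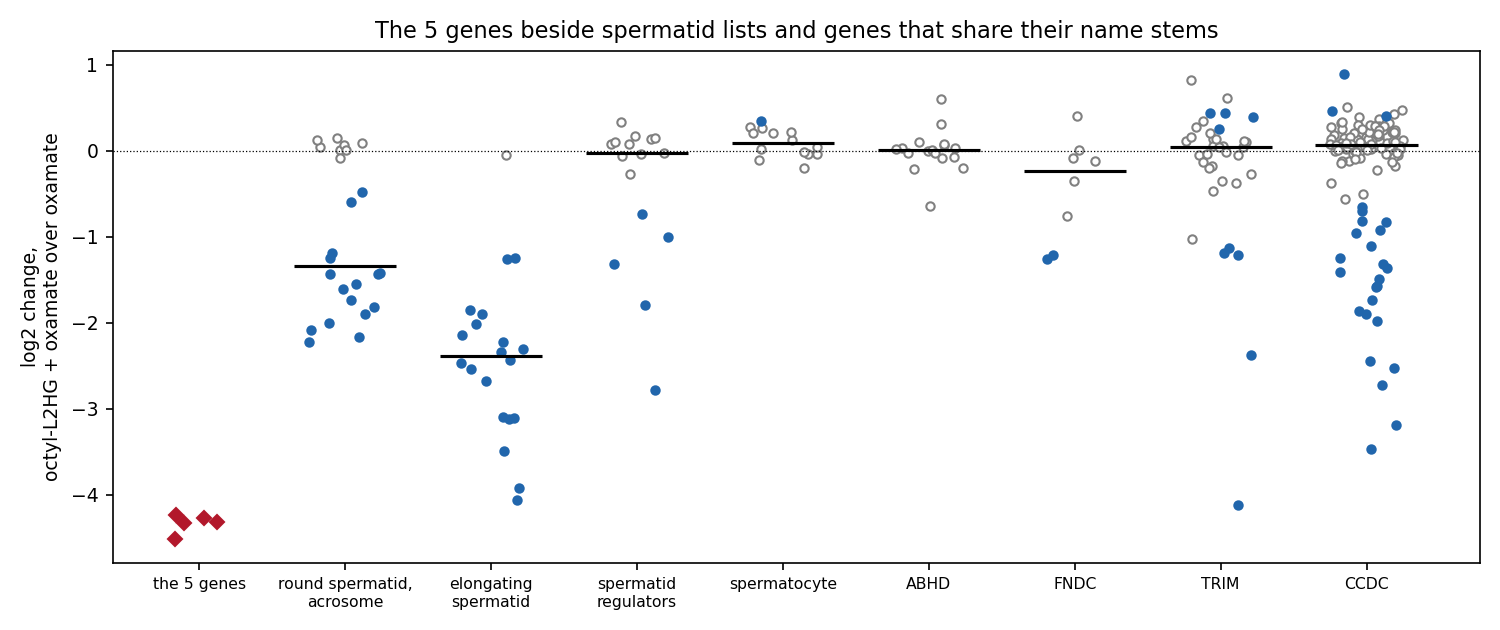
Log2 change with octyl-L2HG plus oxamate over oxamate for the 5 genes (diamonds, chosen on this value) and for tested genes of spermatid, spermatocyte and name-related lists. Filled circles passed a limma adjusted p of 0.05, open circles did not, and lines are medians, from -2.39 for elongating spermatid genes to 0.09 for spermatocyte genes.

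Of 16 regulators of the spermatid program 5 (31.2%) fell and 0 rose with octyl-L2HG plus oxamate against oxamate, and the median log2 change was -0.03. Of all tested genes 15.4% fell and 4.11% rose in this comparison. Crem, the transcription factor that drives many haploid genes in mice, had 208 CPM with octyl-L2HG plus oxamate, 211 CPM with oxamate and 217 CPM in untreated cells, and was called neither with octyl-L2HG against oxamate nor with oxamate against untreated. Papolb, a cytoplasmic poly-A polymerase, had 1413 CPM with octyl-L2HG plus oxamate against 1329 CPM with oxamate and Tcfl5 768 CPM with octyl-L2HG plus oxamate against 683 CPM with oxamate, and neither was called. The 5 that fell, named after their values were seen, were Fhl5, Kif17, Rfx1, Taf7l and Rfx3. Fhl5, a coactivator of Crem, had 4.02 CPM with octyl-L2HG plus oxamate against 25.8 CPM with oxamate (log2 change -2.78, SE 0.32, limma adjusted p = 1.2e-04). Kif17, a kinesin that moves Fhl5 protein out of the nucleus, had 28.5 CPM with octyl-L2HG plus oxamate against 92.2 CPM with oxamate (log2 change -1.80, SE 0.24, limma adjusted p = 2.4e-04). With oxamate against untreated 1 of the 16 fell, Tbpl1 (637 CPM with oxamate against 790 CPM in untreated cells, log2 change -0.31, limma adjusted p = 0.0369). With the letter as a block 1 of 16 fell, again Tbpl1, and 3 rose. The 3, named after their values were seen, were Mybl1 (log2 change 0.39), Brwd1 (0.32) and Taf7l (0.43), with limma adjusted p-values of 0.0111, 0.0085 and 0.0446, where 12.1% of all genes rose and 9.99% fell.

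Ubqln1, whose protein binds Spem1 in mice, had 241 CPM with octyl-L2HG plus oxamate, 231 CPM with oxamate and 226 CPM in untreated cells and was not called with octyl-L2HG against oxamate (log2 change 0.06, SE 0.07, limma adjusted p = 0.60). Ubqlnl, another ubiquilin gene, named after its value was seen, had 1.48 CPM with octyl-L2HG plus oxamate against 17.3 CPM with oxamate and fell in that comparison (log2 change -4.04, SE 0.47, limma adjusted p = 1.3e-04).

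Genes that share a name stem with the 5 held few changes of like size. Abhd16a, the paralog of Abhd16b, had 83.2 CPM with octyl-L2HG plus oxamate, 87.0 CPM with oxamate and 99.2 CPM in untreated cells, and with octyl-L2HG against oxamate its log2 change was -0.07 (SE 0.08, limma adjusted p = 0.59). Of 17 tested Abhd genes 0 were called in that comparison by limma, and the most negative log2 change was that of Abhd6 at -0.65 (limma adjusted p = 0.0625). Of 8 tested Fndc genes 2 fell, Fndc11 (22.6 CPM with octyl-L2HG plus oxamate against 52.5 CPM with oxamate) and Fndc3c1 (0.883 CPM with octyl-L2HG plus oxamate against 2.08 CPM with oxamate). Fndc3a, needed in mice for spermatid adhesion, had 528 CPM with octyl-L2HG plus oxamate against 524 CPM with oxamate and was not called. Of 36 tested Trim genes 5 fell and 4 rose, and Trim80 had the most negative change (1.42 CPM with octyl-L2HG plus oxamate against 22.6 CPM with oxamate, log2 change -4.13, SE 0.39, limma adjusted p = 6.0e-05), followed by Trim36 (34.8 CPM with octyl-L2HG plus oxamate against 167 CPM with oxamate, log2 change -2.38). Of 122 tested Ccdc genes 23 fell and 3 rose, with the most negative change in Ccdc187 (1.03 CPM with octyl-L2HG plus oxamate against 10.9 CPM with oxamate, log2 change -3.47). The share that fell was 13.9% of the Trim genes and 18.9% of the Ccdc genes, near the 15.4% of all tested genes. Abhd6 and the genes of this paragraph that fell were picked by their values.

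Of 12 genes beside or overlapping the 5, 8 had enough counts to be tested. Of these 8, 1 fell with octyl-L2HG plus oxamate against oxamate, a share near the 15.4% over all tested genes. That gene, Spem2, lies 2410 bases from Spem1 on the same strand and is itself a spermatid gene. It had 2.182 CPM (range 0.836 to 4.74) with octyl-L2HG plus oxamate, 25.1 CPM (22.3 to 28.6) with oxamate and 30.6 CPM (28.3 to 33.6) in untreated cells. Its log2 change with octyl-L2HG against oxamate was -3.92 (SE 0.41, limma adjusted p = 9.5e-05). Nlgn2, 941 bases from Spem1 on its other side, had 0.784 CPM in both treated groups, and its log2 change of 0.03 (SE 0.35) was not called (limma adjusted p = 0.96). Beside Abhd16b, Zbtb46 had a log2 change of 0.08 (SE 0.12) and Tpd52l2 of 0.54 (SE 0.30), with limma adjusted p-values of 0.69 and 0.25. Beside Fndc8, Rad51d had 0.05 (SE 0.13) and Unc45b -0.003 (SE 0.15), with limma adjusted p-values of 0.84 and 0.99.

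**Figure D5:**
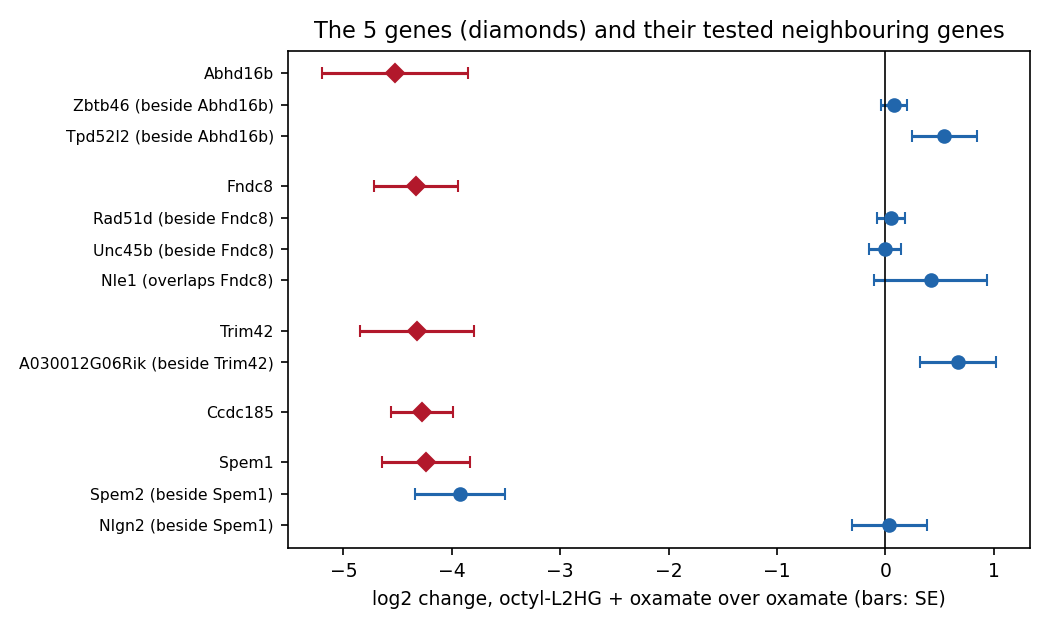
Log2 change with octyl-L2HG plus oxamate over oxamate for each of the 5 genes (diamonds) and for its nearest or overlapping genes with enough counts (circles); bars are SE. Spem2, at -3.92, is the neighbour that lies near its chosen gene, and the other 7 lie between -0.003 and 0.67.

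A gene on the opposite strand overlaps 2 of the 5 loci. Nle1 overlaps Fndc8 and had 0.344 CPM with octyl-L2HG plus oxamate, 0.280 CPM with oxamate and 0.357 CPM in untreated cells. Gm15891 overlaps Trim42 and stayed at or under 0.110 CPM in each library. The library kit marks strand, but the strand setting of the authors' counting was not stated, and reads of an overlapping pair may not be told apart.

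The start sites of the 5 genes were searched for motifs that bind regulators of spermatid genes, in windows of 300 bases (250 before to 50 after the RefSeq start, GRCm38.p6), on both strands. The full cAMP response element TGACGTCA, which Crem binds, was in none of the 5 and in 1.79% of 32851 promoters. Its half-site TGACG, which lies inside the full element, was in 1 of 5 (Ccdc185) and in 20.8% of all promoters. The half-site of the X-box bound by RFX factors, GTTGCC, was in 2 of 5 (Fndc8 and Spem1) and in 12.5%. The TATA box TATAAA was in none of the 5 and in 13.6%, and the Sox30 motif ACAATGG in none and in 3.66%. Abhd16b and Trim42 held none of the 5 motifs. The 3 windows with a match are shown 5′ to 3′ along the gene's strand, with capitals for the match, which in each is on the opposite strand and so reads as its reverse complement. They are Fndc8 at chr11:82891895-82892194 (plus strand, match 23 bases after the start), Spem1 at chr11:69822116-69822415 (minus strand, match 109 bases before the start) and Ccdc185 at chr1:182749131-182749430 (minus strand, match 51 bases before the start).
Fndc8: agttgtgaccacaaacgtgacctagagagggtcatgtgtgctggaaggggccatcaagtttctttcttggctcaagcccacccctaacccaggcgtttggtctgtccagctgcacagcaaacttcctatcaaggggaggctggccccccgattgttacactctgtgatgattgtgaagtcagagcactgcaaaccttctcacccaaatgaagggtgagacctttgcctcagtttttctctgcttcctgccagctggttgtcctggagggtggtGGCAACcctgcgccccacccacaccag
Spem1: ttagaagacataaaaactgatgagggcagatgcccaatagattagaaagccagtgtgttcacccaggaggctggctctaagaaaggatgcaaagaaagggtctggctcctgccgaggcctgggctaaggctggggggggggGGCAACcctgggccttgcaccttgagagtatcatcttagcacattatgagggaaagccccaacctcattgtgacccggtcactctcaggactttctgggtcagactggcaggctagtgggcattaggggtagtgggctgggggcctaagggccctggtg
Ccdc185: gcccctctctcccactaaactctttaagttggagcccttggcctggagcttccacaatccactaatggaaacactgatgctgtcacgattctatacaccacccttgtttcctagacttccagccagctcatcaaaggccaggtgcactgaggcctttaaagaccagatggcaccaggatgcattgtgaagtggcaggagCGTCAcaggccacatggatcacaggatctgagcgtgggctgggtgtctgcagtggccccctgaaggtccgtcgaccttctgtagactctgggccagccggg
These matches describe letters and not binding. The 5 windows had 53.3% to 56.0% G and C and 2 to 6 CpG pairs, against medians of 52.7% and 7 over all promoters.

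Across the 9 libraries the 5 transcripts varied together, with Pearson r of log2(CPM + 0.5) from 0.967 (Abhd16b and Ccdc185) to 0.996 (Abhd16b and Trim42). The added 0.5 exceeds each value of Abhd16b and Trim42 with octyl-L2HG plus oxamate, so it damps their spread between those libraries. These correlations reflect 3 groups in shared libraries and carry no p. The tested named genes most like the mean of the 5 by the same measure were Prss37, a protease-like protein needed for male fertility in mice (r = 0.9995), Ubqln5 (0.9993), Pex5l (0.9989), the cystatin-related Cst8 (0.9985) and calicin, Ccin, of the sperm head cytoskeleton (0.9985). They were followed by Tmigd3 and Gpd2, a mitochondrial glycerol-3-phosphate dehydrogenase (0.9983 each), Prss52 and Spata31d1b (0.9982 each) and Slfnl1 (0.9981). Prss37 averaged 0.950 CPM with octyl-L2HG plus oxamate, 14.7 CPM with oxamate and 22.4 CPM in untreated cells. Gpd2, also among the 10, averaged 31.0 CPM with octyl-L2HG plus oxamate, 101 CPM with oxamate and 124 CPM in untreated cells, so a high r went with a smaller fold than that of the 5. The 10 genes lie on chromosomes 2, 3, 4, 6, 7, 13 and 14, of which only chromosome 2 also holds a gene of the 5, Abhd16b.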

How the data were processed

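Per the labels' protocols, RNA was poly-A captured and libraries were made with the KAPA Stranded mRNA-Seq kit. The build was GRCm38, and among the tools were TopHat2 2.1.1, HTSeq 0.6.0 and the authors' DESeq2 1.22.2, per the submitters' processing notes. The authors deposited raw counts per gene for 55471 genes, with log2 fold changes and adjusted p-values of their own. For 6255 genes a question mark stands in place of counts; they were left out, and because of them the raw columns were recorded as another unit than counts. The 9 normalized columns were not used. Genes reaching the CPM of 10 counts in the median library in at least 3 libraries, with a total of at least 15, were kept. Counts were scaled by TMM (trims 30% and 5%) and fitted with limma 3.58.1 (voom, robust) in R 4.3.3, all 9 libraries in 1 fit, with Benjamini-Hochberg adjustment over all 18234 genes. The fit was tested on simulated data. Exon lengths and neighbours are from GENCODE, promoters from RefSeq (GRCm38.p6).

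The letters were taken to pair oxamate with untreated libraries, because libraries of 1 letter deviated together from their groups' means (r over genes of 0.54, 0.52 and 0.35). With octyl-L2HG the letter C gave 0.04 and 0.005, and the block was still fitted over all 9 libraries. All replicate pairs differed by more than sampling noise.

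The 5 genes and all lists were chosen with earlier results of these data known. Besides the 5, the naming rule admits genes ranked next to them, the 10 most similar, neighbours, the 3 most abundant genes of each list and a set of its own, of which Tnp1, Spem2, Abhd16a, Ubqln1 and Crem are reported. Other genes are marked as named after their values were seen. Alternatives were other scalings, filters, libraries, a trend fit, the letter as a block and leaving out each library.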

Additional observations from a re-analysis of the deposited data

How the results depend on the processing

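The 5 genes had negative log2 changes with oxamate against untreated under each of the 16 alternatives. The alternatives reuse the same libraries, and for each gene all oxamate libraries lay under all untreated libraries, so the shared sign is no added support. The log2 changes were also negative in the 2 comparisons with octyl-L2HG, but there the choice of the genes fixed the sign, so this is no support. The number of the 5 called lower with oxamate against untreated, 0 as reported, was 1 with upper quartile scaling (4.57% of all genes called lower), 1 with median-of-ratios scaling (4.12%), 2 with limma-trend on log2(CPM + 2) (4.53%), 2 with the letter as a replicate block (9.99%) and 4 with only the 6 libraries compared (5.66%). It was 0 to 4 when 1 library was left out: 4 without library C with octyl-L2HG (4.37%), 2 without oxamate library A (5.01%), 1 without library B with octyl-L2HG (4.01%) and 0 without each of the other 6 (0.628% to 3.65%). For Trim42 the limma adjusted p ran from 0.0108 to 0.185 over the alternatives. The block changed no call of the 5 other than those of Trim42 and Abhd16b. Over all genes, oxamate against untreated called 1747 genes, 4032 with the replicate block, and 338 to 2297 without 1 library, the lowest without untreated library C. With octyl-L2HG the leave-outs ran from 2297 to 3661 genes against oxamate (3550 with all 9, lowest without library A with octyl-L2HG) and from 5192 to 7192 against untreated. With limma-trend the log2 changes of the 5 genes against oxamate ran from -1.01 (Abhd16b) to -3.15 (Ccdc185), as the added 2 CPM exceeds each gene's mean with octyl-L2HG. The causes of the other differences were not tested. Depth limits Abhd16b and Trim42 with octyl-L2HG, with 16 and 29 counts over 3 libraries.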
